A study of Mus musculus with 8 samples.

Results

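Creatine kinases and adenylate kinases move high-energy phosphate between the sites where ATP is made and the sites where it is used, and the genes of this system made up the 9 members described here: Ckm, Ckmt2, Ckb, Ckmt1, Gatm, Gamt, Slc6a8, Ak1 and Ak3. They were matched by gene name among 49584 features, and each name gave 1 gene. In heart muscle, mitochondrial creatine kinase passes phosphate from newly made ATP to creatine, phosphocreatine carries it through the cytosol, and cytosolic creatine kinase returns it to ADP beside myosin and the ion pumps. Adenylate kinases interconvert ATP, ADP and AMP, and thereby set the AMP level that AMP-activated protein kinase senses. Creatine itself is made mainly in kidney and liver, and muscle takes it up from the blood.

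The RNA was total RNA of crude mitochondria from mouse heart. The 4 knockout animals are titled L/L, cre and given the genotype Tefm -/-, and the 4 controls are titled L/L and given the genotype Tefm +/+. TEFM is an elongation factor of mitochondrial transcription. An exon of Tefm was flanked by loxP sites, which the titles place in both groups, and cre came from the muscle creatine kinase promoter (written creatinine in the labels), so that Tefm could be deleted only in cells in which this promoter is active. It is the promoter of Ckm, a member described here, and whether the transgene carries transcribed Ckm sequence is not stated in the labels. Age, sex and strain of the animals are not stated either.

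The libraries labelled knockout held 21108165 to 25393933 counts and the control libraries 26268804 to 27403415. Transcripts of mitochondrial DNA took 59.3%, 44.2%, 38.7% and 43.1% of the counts in knockout libraries 1 to 4, against 72.3% to 74.0% in the controls, so knockout library 1 stood nearest to the controls. Tefm gave 6.86 ± 0.596 CPM (counts per 1000000, scaled by TMM to the library) in knockout libraries and 6.24 ± 0.639 CPM in controls (SD, n = 4 each). It did not pass edgeR's test (log2 fold change 0.14, SE 0.11, adjusted p = 0.324), but the count covers the whole gene and therefore does not check the deletion of an exon. With TMM scaling 6 of 8 cardiomyocyte markers fell and 1 rose, where 23.9% of all genes tested fell and 26.1% rose. The summed level of these markers was 7198 to 11281 CPM in knockout libraries and 15531 to 16345 CPM in controls. In crude mitochondria, fewer cells of a type, less RNA per cell and a changed amount of co-purified cytosolic RNA cannot be told apart.

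All 9 members had enough counts for the test, Ckmt1 only through the knockout libraries in which it is high, so that its call is counted here as a description. In edgeR's quasi-likelihood test with Benjamini-Hochberg adjustment over 17891 genes, 2 members rose (Ckmt1 and Slc6a8), 5 fell (Ckm, Ckmt2, Gamt, Ak1 and Ak3) and 2 did not pass (Ckb and Gatm). Of all genes tested 50.0% passed, 26.1% as rises and 23.9% as falls. Knockout and control libraries did not overlap in the same 7 members, and in 45.4% of all genes tested. The median log2 fold change of the members was -0.53, and that of all genes tested -0.02. Without knockout library 1 the counts were again 2 and 5. DESeq2 gave 2 rises and 4 falls, where 35.6% of genes passed, 19.1% as rises and 16.5% as falls. Scaling by library totals alone moved the median of all genes by 0.99, and 6 members then rose and 0 fell, where 81.3% of genes passed, 78.6% as rises and 2.68% as falls: Ckm, Ckmt2, Ckb and Ak3 then passed as rises, and the calls of Gamt and Ak1 were lost.

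**Figure D1:**
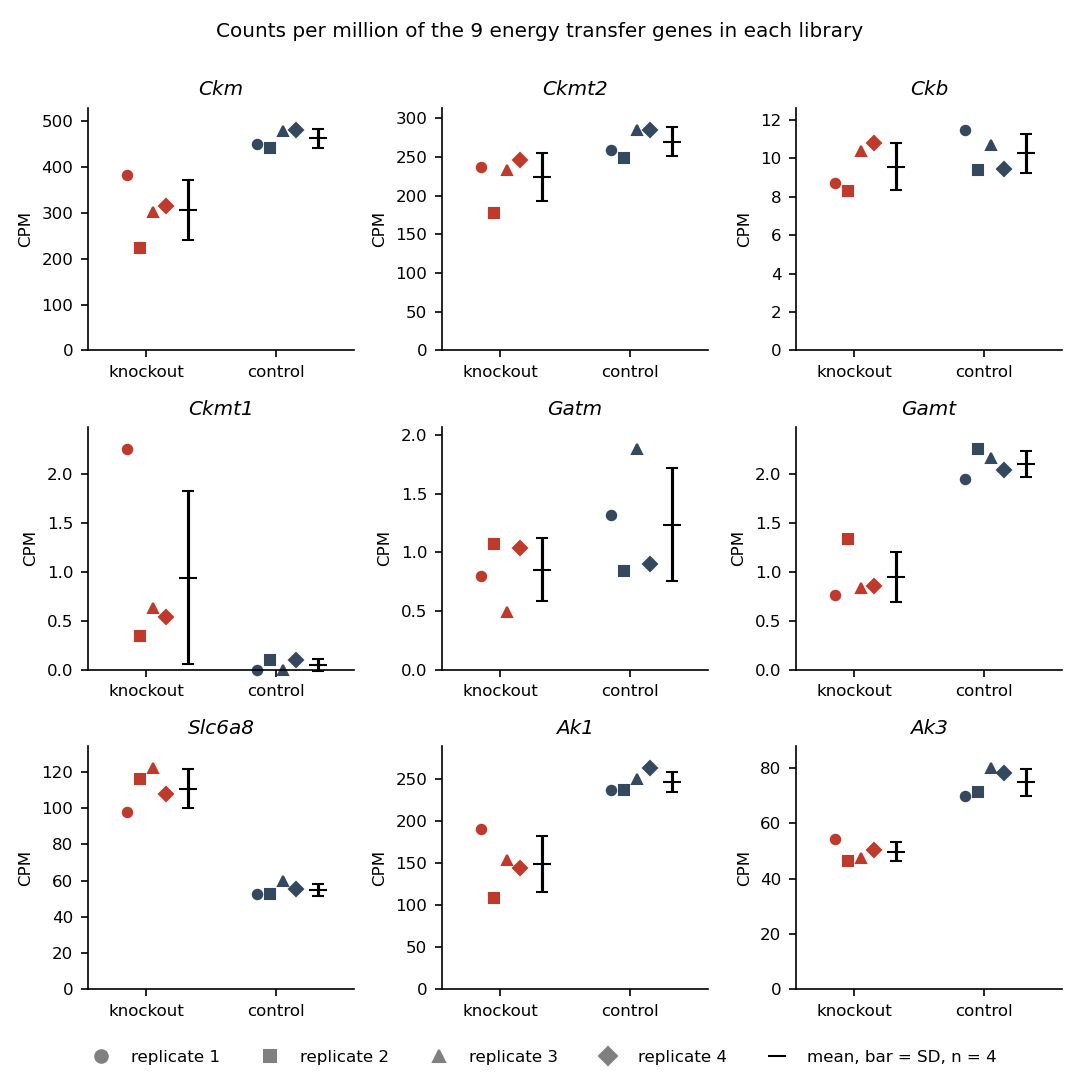
CPM of each member in the 4 knockout libraries (left in each panel) and the 4 control libraries (right), with a marker shape for each replicate and the mean with its SD (n = 4). Knockout and control points do not overlap in 7 panels, and they overlap for Ckb and Gatm.

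Among the cytosolic creatine kinases, the muscle isoform was lower in the knockout libraries with TMM scaling and higher when scaled by library totals alone. Ckm (ENSMUSG00000030399.2, chromosome 7, 19404776 to 19422841 in GRCm38, plus strand) encodes the muscle subunit, which binds the M-band of the sarcomere. It had 383, 223, 302 and 315 CPM in knockout libraries 1 to 4, against 450, 441, 479 and 482 CPM in controls 1 to 4. Every knockout library lay below every control, with knockout library 1 nearest to the controls and knockout library 2 lowest. The means were 306 ± 65.5 CPM in knockout libraries and 463 ± 20.7 CPM in controls, and the log2 fold change was -0.60 (SE 0.13, 95% interval -0.88 to -0.32, adjusted p = 0.00146), but 0.36 when scaled by library totals alone. The antisense gene A930016O22Rik shares 451 exon bases with Ckm, and it fell as well with TMM scaling (log2 fold change -0.52, adjusted p = 0.00401). The labels do not state whether counting used strand, so reads of the pair cannot be told apart where they overlap.

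Ckb (ENSMUSG00000001270.8, chromosome 12, 111669361 to 111672338, minus strand) encodes the brain subunit, which is the main cytosolic form in brain and smooth muscle. It had 8.72, 8.31, 10.4 and 10.8 CPM in knockout libraries, against 11.5, 9.38, 10.7 and 9.47 CPM in controls. The groups overlapped, at 9.54 ± 1.21 CPM in knockout libraries and 10.3 ± 1.04 CPM in controls (log2 fold change -0.11, SE 0.11, 95% interval -0.34 to 0.13, adjusted p = 0.45). The pseudogene Gm12892 shares 21.7% of the 50-base stretches of Ckb and held 1175 counts in knockout libraries and 792 in controls, so reads may be split between them, and the value of Ckb is uncertain. Smooth muscle and pericyte markers, from cells in which Ckb is known, summed to 422 to 473 CPM in knockout libraries and 486 to 511 CPM in controls. Of these 5 markers 1 fell, where 23.9% of all genes tested fell.

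The mitochondrial creatine kinases form octamers in the space between the mitochondrial membranes, and they differed in direction with TMM scaling, while both rose when scaled by library totals alone. Ckmt2 (ENSMUSG00000021622.3, chromosome 13, 91853387 to 91876885, minus strand) encodes the sarcomeric form of heart and skeletal muscle. It had 237, 178, 233 and 246 CPM in knockout libraries, against 259, 249, 285 and 285 CPM in controls. The groups did not overlap, but knockout library 4 and control library 2 lay close to each other. The means were 224 ± 30.9 CPM in knockout libraries and 269 ± 18.5 CPM in controls, and the log2 fold change was -0.27 (SE 0.10, 95% interval -0.49 to -0.05, adjusted p = 0.0406), but 0.72 when scaled by library totals alone. This call was near the threshold: it was lost with DESeq2 (adjusted p = 0.0555), without a filter on low counts (0.0654), and without control library 1, 3 or 4 or knockout library 2 or 3 (adjusted p = 0.0591 to 0.109). Without knockout library 2 the log2 fold change was -0.17. In the authors' deposited table the adjusted p of Ckmt2 was 0.0559. The antisense gene 1700119I11Rik shares 84 exon bases with Ckmt2 and with TMM scaling fell to 3.57 ± 0.495 CPM in knockout libraries, against 5.19 ± 0.66 CPM in controls (edgeR adjusted p = 0.00476).

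Ckmt1 (ENSMUSG00000000308.14, chromosome 2, 121357714 to 121363737, plus strand) encodes the ubiquitous mitochondrial form, known from brain and epithelia. It held 59, 12, 22 and 17 counts in knockout libraries, against 0, 2, 0 and 2 counts in controls. The highest control library thus lay below the lowest knockout library, and knockout library 1 held more than the other knockout libraries together. The 110 knockout counts and 4 control counts gave a ratio of 16.5 after scaling, with a 95% counting interval of 6.26 to 61.6. Such an interval covers counting error only and not the spread between animals. Without knockout library 1 the ratio was 9.62 (3.54 to 36.7). The log2 fold change fitted by edgeR, 3.99, depends on the prior count at so few counts. It was 4.18 with DESeq2 and 2.71 in the authors' deposited table. Neuron and glia markers, from cells in which Ckmt1 is known, summed to 1.38 to 1.79 CPM in knockout libraries and 1.58 to 1.99 CPM in controls. Where 50.0% of all genes tested passed, 2 of the 4 markers analysed here could be tested and 0 passed. Of these S100b, a glial marker, had 0.722 ± 0.151 CPM in knockout libraries and 0.446 ± 0.0647 CPM in controls, without overlap (adjusted p = 0.051), and Stmn2, a neuronal marker, had a log2 fold change of -0.53 (adjusted p = 0.0689). Snap25 held 0 counts in knockout libraries and 2 in controls. Markers of epithelia were not examined. When mitochondrial genes were removed before scaling, Ckmt1 no longer passed the filter on low counts.

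**Figure D2:**
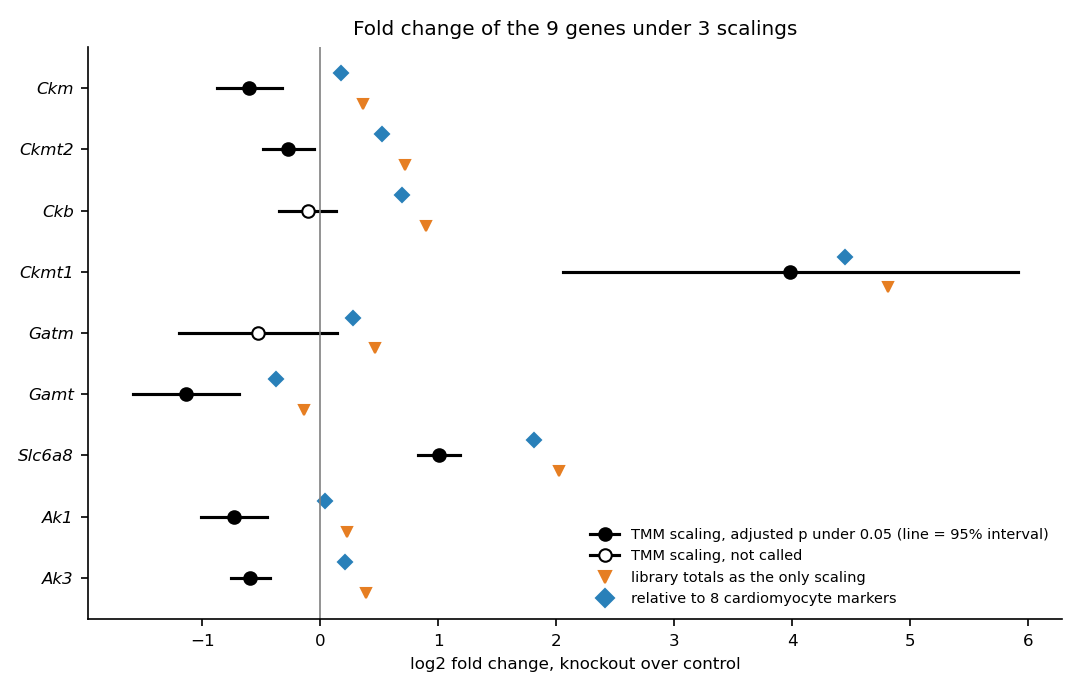
Log2 fold change, knockout over control, of the 9 members under 3 scalings: TMM with its 95% interval (black, filled where the adjusted p is under 0.05), library totals alone (orange) and counts relative to 8 cardiomyocyte markers (blue). Ckmt1 and Slc6a8 lie right of 0 and Gamt left of 0 under each scaling, and Ckm, Ckmt2, Ckb, Gatm, Ak1 and Ak3 lie left of 0 with TMM alone.

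The sequences before the starts of the 4 creatine kinase genes are shown because these genes differed in direction with TMM scaling and because a Ckm promoter drives cre. RefSeq promoters of GRCm38.p6 matched 8 of the 9 members. Each sequence begins 250 bases before the RefSeq start, runs 5′ to 3′ on the strand of its gene and stops before the first GENCODE exon inside the window. The window of Ckm lies in an intron of a longer GENCODE transcript, the one that begins at the gene start of 19404776 given above. Capitals mark matches, on either strand, to the E-box CANNTG, the promoter element CCAAT, the core promoter motif TATAAA or AAGGTCA, the half-site of estrogen-related receptors. Ckm is shown from chr7:19410844-19411024 (plus strand), Ckmt2 from chr13:91876886-91877135 (minus strand), Ckb from chr12:111672339-111672588 (minus strand) and the first of 2 Ckmt1 starts from chr2:121357526-121357713 (plus strand).
Ckm: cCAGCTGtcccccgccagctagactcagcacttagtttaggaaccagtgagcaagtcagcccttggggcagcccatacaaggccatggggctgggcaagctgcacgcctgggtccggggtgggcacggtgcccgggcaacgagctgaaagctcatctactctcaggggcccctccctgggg
Ckmt2: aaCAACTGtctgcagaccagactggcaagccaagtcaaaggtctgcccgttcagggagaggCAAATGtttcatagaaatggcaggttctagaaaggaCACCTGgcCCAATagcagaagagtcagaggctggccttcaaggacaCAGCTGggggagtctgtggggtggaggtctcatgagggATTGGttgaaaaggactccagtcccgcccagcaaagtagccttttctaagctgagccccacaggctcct
Ckb: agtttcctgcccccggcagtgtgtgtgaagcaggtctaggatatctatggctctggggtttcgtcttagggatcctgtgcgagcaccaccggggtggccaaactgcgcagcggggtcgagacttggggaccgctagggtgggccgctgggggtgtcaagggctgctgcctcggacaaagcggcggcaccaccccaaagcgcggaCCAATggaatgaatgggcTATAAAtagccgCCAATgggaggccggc
Ckmt1: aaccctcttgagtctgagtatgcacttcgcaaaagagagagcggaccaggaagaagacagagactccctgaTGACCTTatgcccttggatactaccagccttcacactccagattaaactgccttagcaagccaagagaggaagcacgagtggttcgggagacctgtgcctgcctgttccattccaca
No marked matches overlapped each other. The window of Ckmt2 held 4 matches to CANNTG and 2 to CCAAT, and that of Ckm held 1 match to CANNTG. The part of the Ckm window that is not printed held tatataa, which the exact letters TATAAA do not match. The window of Ckb held 2 matches to CCAAT and 1 to TATAAA, and none to CANNTG. Ckmt1 held 1 match to AAGGTCA, printed as its reverse complement, and 1 to TATAAA that lies in an annotated exon and is not printed. Of 32851 RefSeq promoter windows of 250 bases, 66.2% held CANNTG, 33.8% CCAAT, 12.4% TATAAA and 4.08% AAGGTCA, so most of these matches are common. TGATGNAA, an element of the stress factor ATF4, was in none of these 4 windows and in 3.45% of all. The windows of Gamt and Ak3 held none of the 5 motifs.

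Levels between genes were compared as counts per kilobase of exon per 1000000 nuclear counts, as a description. Ckmt2 had the highest level of the members, at 396 ± 46.2 in knockout libraries and 482 ± 28.8 in controls, followed by Ckm at 275 ± 50.2 in knockout libraries and 423 ± 15.2 in controls (SD, n = 4 each). With the shortest annotated coding transcript as the length, a choice made after the data were seen, Ckm stood first instead (649 ± 118 in knockout libraries, 998 ± 35.9 in controls), so the order of these neighbours depends on the length used. Ak1 came next, with a level of 150 ± 29.1 in knockout libraries and 253 ± 10.2 in controls. The levels of Slc6a8 and Ak3 changed places: Slc6a8 had 56.3 ± 6.66 in knockout libraries and 28.1 ± 1.52 in controls, and Ak3 had 41.9 ± 1.75 in knockout libraries and 63.8 ± 3.73 in controls. Ckb followed at 8.69 ± 1.09 in knockout libraries and 9.46 ± 0.94 in controls, and Gamt at 1.74 ± 0.542 in knockout libraries and 3.88 ± 0.269 in controls. Gatm and Ckmt1 were lowest, and the knockout levels of Gatm (0.751 ± 0.252) and Ckmt1 (0.976 ± 0.882) did not differ beyond their spread.

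Within the 4 creatine kinases, Ckmt2 took 54.1%, 60.1%, 59.4% and 59.6% of the summed level per length in knockout libraries, against 52.4%, 52%, 53.3% and 53.2% in controls. Ckm took 44.5%, 38.4%, 39.2% and 39% in knockout libraries, against 46.4%, 47%, 45.7% and 45.9% in controls. Knockout library 1 stood between the other knockout libraries and the controls in both shares. Which of these genes takes the larger share depends on the length used. With the shortest coding transcript, Ckm stood above Ckmt2 in knockout libraries (649 against 396) and in controls (998 against 482). Ckb took 1.29% ± 0.184 in knockout libraries and 1.04% ± 0.121 in controls, and Ckmt1 took 0.137% ± 0.113 in knockout libraries and 0.00603% ± 0.00701 in controls. The summed level was 681 ± 90.7 in knockout libraries and 915 ± 43.8 in controls, and its order turned when all counts, mitochondrial ones included, were the denominator (363 ± 67.4 in knockout libraries, 245 ± 14 in controls).

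A ratio of 2 genes within a library does not depend on how the library is scaled, and 5 such ratios were tested over the 70 relabelings of the libraries (exact permutation test, two-sided). The log2 ratio of Ckmt2 to Ckm was -0.69, -0.33, -0.37 and -0.36 in knockout libraries, against -0.80, -0.83, -0.75 and -0.76 in controls. All 4 knockout libraries lay above the controls, with knockout library 1 close to them (difference 0.35; exact p = 0.0286, the smallest these relabelings give; 0.0714 after Benjamini-Hochberg adjustment over 5 ratios). The ratio of Ckmt1 to Ckmt2 was also higher in all 4 knockout libraries (difference 3.93, exact p = 0.0286, adjusted p = 0.0714), with 2 control libraries at 0 counts of Ckmt1. Ckmt1 had enough counts only through the knockout libraries in which it is high, so this ratio is given as a description. The size of its difference rests on the 0.5 added to each count, and it was 1.81 with 5 added instead. For Ckb to Ckm the difference was 0.51 and the groups overlapped (exact p = 0.0571, adjusted p = 0.0952). The differences for Gatm to Gamt (0.65; exact p = 0.143, adjusted p = 0.179) and Ak1 to Ak3 (-0.17; exact p = 0.286, adjusted p = 0.286) were within the spread of the libraries. None of the 5 ratios passed 0.05 after adjustment with all libraries. Without knockout library 1 the ratios of Ckb to Ckm (0.67), Ckmt1 to Ckmt2 (3.42) and Ckmt2 to Ckm (0.43) passed (exact permutation test, adjusted p = 0.0476 each). Each stood at the smallest exact p that 3 against 4 libraries give (0.0286). In Ckb to Ckm and Ckmt2 to Ckm the library left out was the knockout library nearest to the controls, which favours a pass. In Ckmt1 to Ckmt2 it lay furthest from them.

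**Figure D3:**
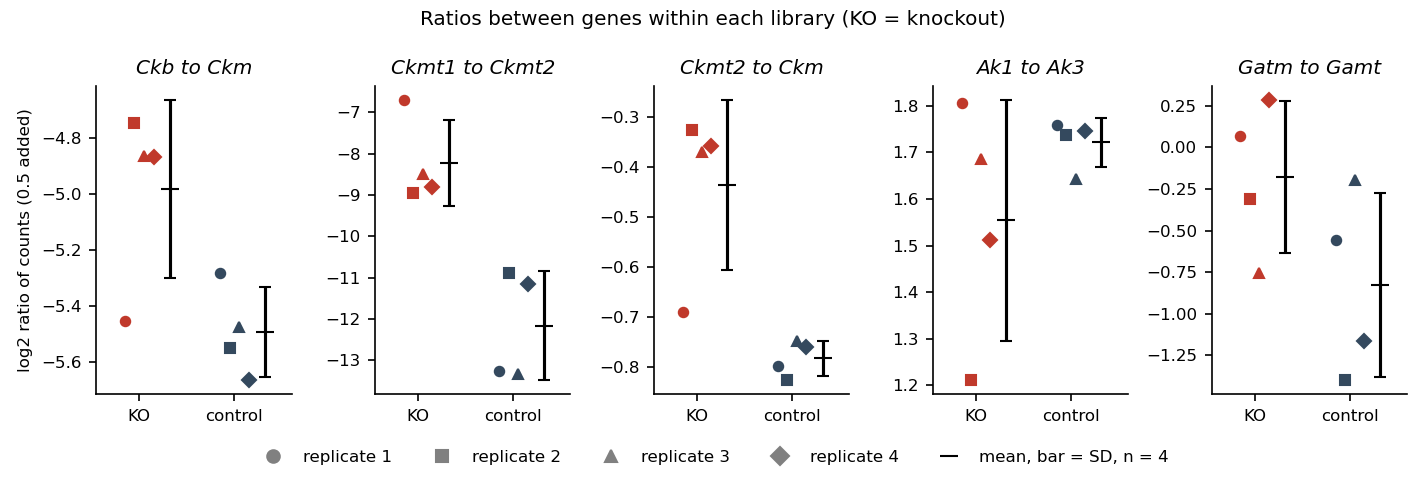
Log2 ratios between members within each library (counts, with 0.5 added), knockout (KO) left and control right, with the mean and SD (n = 4). For Ckmt1 to Ckmt2 and for Ckmt2 to Ckm the 4 knockout libraries lie above the 4 controls, and in the Ckb to Ckm panel knockout library 1 lies among the controls.

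Creatine supply genes moved in different directions. Slc6a8 (ENSMUSG00000019558.14, chromosome X, 73673150 to 73682502, plus strand) encodes the sodium-dependent creatine transporter of the plasma membrane. It had 97.7, 116, 122 and 108 CPM in knockout libraries, against 52.8, 52.5, 59.6 and 55.4 CPM in controls. No library of either group came near the other group, and knockout library 1 was the lowest of its group. The gene rose 2.02-fold, to 111 ± 10.6 CPM in knockout libraries, against 55.1 ± 3.32 CPM in controls (log2 fold change 1.01, SE 0.08, adjusted p = 2.85e-07). It passed under each alternative tried with a test, with a log2 fold change of 0.97 to 1.06 over the fits without 1 library and of 2.02 when scaled by library totals alone.

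Gamt (ENSMUSG00000020150.13, chromosome 10, 80258151 to 80261012, minus strand) encodes guanidinoacetate methyltransferase, the last enzyme of creatine synthesis. It had 0.765, 1.33, 0.837 and 0.851 CPM in knockout libraries, against 1.95, 2.25, 2.16 and 2.04 CPM in controls, from 20 to 46 counts per library. The groups did not overlap, and knockout library 2 was nearest to the controls. The log2 fold change was -1.14 (SE 0.21, 95% interval -1.59 to -0.68, adjusted p = 0.000491), and -0.14 with no call when scaled by library totals alone. Gatm (ENSMUSG00000027199.14, chromosome 2, 122594467 to 122611303, minus strand) encodes the amidinotransferase of the first step. It had 0.803, 1.07, 0.49 and 1.04 CPM in knockout libraries, against 1.32, 0.838, 1.88 and 0.897 CPM in controls. The groups overlapped, and the change was not detectable at 16 to 37 counts per library (log2 fold change -0.53, SE 0.31, 95% interval -1.20 to 0.15, adjusted p = 0.181).

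Of 8 genes listed around the methyl and amino acid supply of creatine synthesis, 5 rose, 0 fell and 3 did not pass, with a median log2 fold change of 1.15, where 26.1% of all genes tested rose. The list was chosen with earlier results of these data known, so this count is a description and no test of the supply pathway. When scaled by library totals alone all 8 rose, as did 78.6% of all genes. Slc6a9, which encodes a glycine transporter, had 7.49, 16.6, 13 and 10.5 CPM in knockout libraries, against 0.738, 1.36, 0.996 and 1.2 CPM in controls (log2 fold change 3.47, SE 0.26, adjusted p = 1.25e-07). Shmt2, the mitochondrial serine hydroxymethyltransferase that makes glycine, rose to 46.2 ± 11.7 CPM in knockout libraries, against 11.1 ± 0.749 CPM in controls (2.06, SE 0.16). In both genes knockout library 1 was the lowest knockout library and lay above all controls. The transporter gene Slc6a6, which is among the 5, rose as well, although its known substrate is taurine, which is not used in creatine synthesis (1.18, SE 0.10). The methionine adenosyltransferase genes Mat2a (0.14, adjusted p = 0.227) and Mat2b (0.02, adjusted p = 0.859) did not pass.

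The adenylate kinase members were lower in the knockout libraries with TMM scaling, while Ak4 and Ak6 of the same family were higher; scaled by library totals alone, Ak3 rose too and Ak1 did not pass. Ak1 (ENSMUSG00000026817.14, chromosome 2, 32621758 to 32635058, plus strand) encodes the main cytosolic adenylate kinase of muscle. It had 190, 108, 153 and 144 CPM in knockout libraries, against 237, 237, 249 and 262 CPM in controls. The groups did not overlap, and the order of the knockout libraries 1 and 2, highest and lowest, was that of Ckm. The means were 148 ± 33.7 CPM in knockout libraries and 246 ± 11.8 CPM in controls, and the log2 fold change was -0.73 (SE 0.13, adjusted p = 0.000362), but 0.23 with no call (adjusted p = 0.139) when scaled by library totals alone.

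Ak3 (ENSMUSG00000024782.7, chromosome 19, 29020833 to 29047961, minus strand) encodes the GTP:AMP phosphotransferase of the mitochondrial matrix, which uses the GTP made by the citric acid cycle. It had 54.2, 46.5, 47.5 and 50.4 CPM in knockout libraries, against 70, 71.2, 79.8 and 78 CPM in controls. All knockout libraries lay below all controls, with less spread between them than for Ak1. The means were 49.6 ± 3.44 CPM in knockout libraries and 74.8 ± 4.9 CPM in controls, and the log2 fold change was -0.59 (SE 0.08, adjusted p = 2.01e-05), but 0.39 when scaled by library totals alone. Ak3 overlaps Cdc37l1 (430 exon bases; log2 fold change 0.15, adjusted p = 0.111) and 1700018L02Rik (283 exon bases; -0.59, adjusted p = 0.0107, with TMM scaling) on the other strand, and reads there cannot be told apart.

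Of 6 other adenylate kinase genes analysed here 3 could be tested, and 2 rose, 0 fell and 1 did not pass (median log2 fold change 0.47). Of all genes tested 26.1% rose and 23.9% fell. Without control library 1 or 4 or knockout library 2 or 4, 1 of the 3 rose. Ak4, a matrix protein of the Ak3 type, rose to 30.2 ± 2.15 CPM in knockout libraries, against 21.9 ± 0.987 CPM in controls (0.47, SE 0.08, adjusted p = 0.000152). The matrix genes Ak3 and Ak4 thus lay on opposite sides of 0 with TMM scaling, and on the same side when scaled by library totals alone. Ak6, a nuclear member of the family, rose as well (0.47, adjusted p = 0.0202), and its call was the one lost without those libraries.

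**Figure D4:**
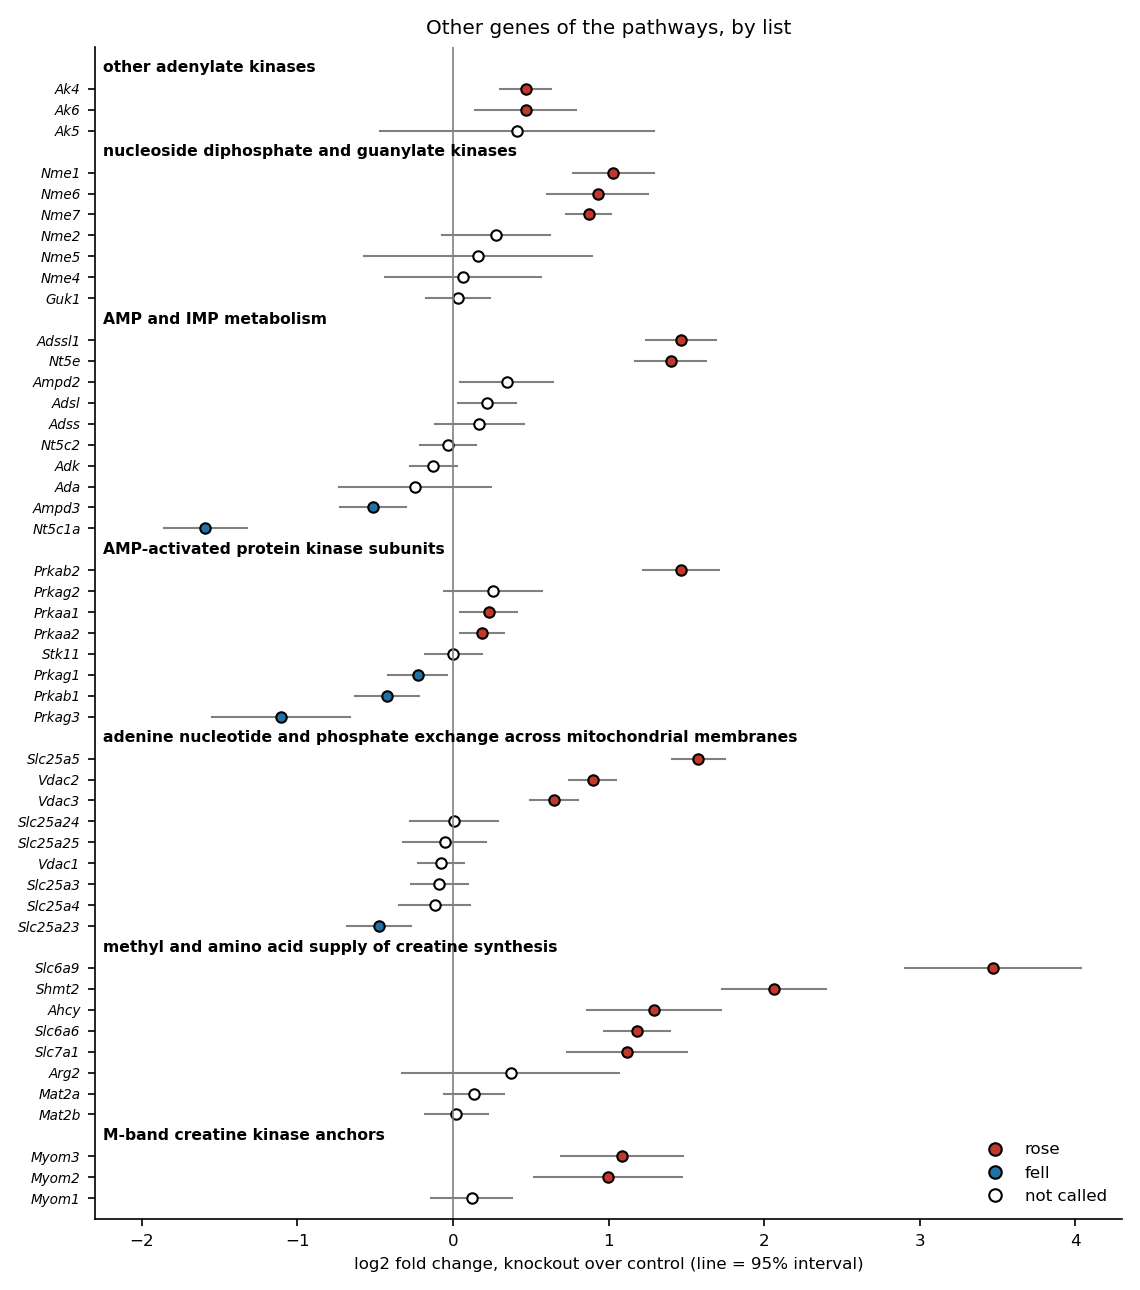
Log2 fold change, knockout over control, with its 95% interval for each tested gene of 7 lists around the members, by TMM scaling. Red points rose, blue points fell and open points did not pass an adjusted p of 0.05, and when scaled by library totals alone Ampd3, Prkab1, Prkag1 and Slc25a23 turned to rises.

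Genes next to this system changed in both directions with TMM scaling, while with library totals alone 1 gene of the 4 lists that follow fell, Nt5c1a. Of all genes tested 26.1% rose and 23.9% fell with TMM scaling, and 78.6% rose and 2.68% fell with library totals alone. These lists, too, were chosen with earlier results of these data known. Nucleoside diphosphate kinases, which pass phosphate between ATP and other nucleotides, and guanylate kinase gave 3 rises and 0 falls among 7 tested of 8 (median log2 fold change 0.28), and 7 rises and 0 falls with library totals alone. Nme7 had 31.5, 30.4, 30.1 and 30.6 CPM in knockout libraries, against 16.5, 16.4, 16.1 and 17.9 CPM in controls (0.87, SE 0.07, adjusted p = 1.84e-07). Nme1, a cytosolic form (1.03), and Nme6 (0.93) also rose.

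In the list of AMP and IMP metabolism 2 rose, 2 fell and 6 did not pass of 10 tested, from 11 listed (median 0.07). Of all genes tested 26.1% rose and 23.9% fell. Without knockout library 1, 4 of the list rose. With library totals alone 9 of the list rose and 1 fell, where 78.6% of all genes rose and 2.68% fell. Adssl1, the muscle adenylosuccinate synthase of the purine nucleotide cycle, rose to 38.9 ± 5.61 CPM in knockout libraries, against 14.1 ± 1.27 CPM in controls (log2 fold change 1.46, adjusted p = 7.43e-08). Nt5e, the ectonucleotidase that turns extracellular AMP into adenosine, rose to 42.3 ± 6.39 CPM in knockout libraries, against 16 ± 1.07 CPM in controls (1.40, adjusted p = 1.19e-07). Nt5c1a, a cytosolic nucleotidase that makes adenosine from AMP, had 2.26, 2.03, 2.22 and 1.99 CPM in knockout libraries, against 7.01, 6.34, 5.64 and 6.58 CPM in controls (-1.59, SE 0.13, adjusted p = 1.75e-07). The AMP-degrading genes outside and inside the cell, Nt5e and Nt5c1a, therefore went in opposite directions. The AMP deaminase gene Ampd3 fell (-0.52, SE 0.10, adjusted p = 0.000607), but stood at 0.48 when scaled by library totals alone.

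Of 8 genes of AMP-activated protein kinase and its activating kinase 3 rose, 3 fell and 2 did not pass (median 0.09). Of all genes tested 26.1% rose and 23.9% fell. The number of these 8 that rose was 1 when any control library, knockout library 2 or knockout library 3 was left out. With library totals alone 7 of the 8 rose and 0 fell, where 78.6% of all genes rose and 2.68% fell. The regulatory subunit gene Prkab2 had 90.6, 90.4, 132 and 104 CPM in knockout libraries, against 36.2, 37.2, 40.9 and 37 CPM in controls (log2 fold change 1.46, SE 0.11, adjusted p = 1.55e-07). Prkab1, the other gene of that subunit, fell (-0.42, SE 0.10, adjusted p = 0.00195; 0.56 when scaled by library totals alone), and so did Prkag3 (-1.11, SE 0.21, adjusted p = 0.000519). The catalytic subunit genes Prkaa1 (0.23, adjusted p = 0.0375) and Prkaa2 (0.19, adjusted p = 0.0322) and Prkag1 (-0.23, adjusted p = 0.0437; 0.75 when scaled by library totals alone) were near the threshold, and the call of each was lost in 6 or more of the 8 fits that left out 1 library.

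The carriers and porins listed for the exchange of adenine nucleotides and phosphate across the mitochondrial membranes gave 3 rises, 1 fall and 5 genes that did not pass (median -0.05). Of all genes tested 26.1% rose and 23.9% fell. Without knockout library 1, 2 of the list fell. With library totals alone 9 of the list rose and 0 fell, where 78.6% of all genes rose and 2.68% fell. Slc25a5, an ADP/ATP carrier gene, had 207, 196, 202 and 204 CPM in knockout libraries, against 64.2, 64.8, 64.4 and 77.4 CPM in controls (log2 fold change 1.58, SE 0.08, adjusted p = 2.54e-09). Slc25a4, the main ADP/ATP carrier gene of heart, had 1500, 1062, 1299 and 1255 CPM in knockout libraries, against 1345, 1357, 1396 and 1453 CPM in controls, and did not pass (-0.12, SE 0.11, adjusted p = 0.381). Per length, the level of Slc25a4 was 1429 ± 152 in knockout libraries and 1571 ± 44.7 in controls, above every member, and that of Slc25a5 was 324 ± 4.54 in knockout libraries and 109 ± 9.89 in controls. The porin genes Vdac2 (0.90) and Vdac3 (0.65) rose, and the ATP-Mg/phosphate carrier gene Slc25a23 fell (-0.48, adjusted p = 0.000888; 0.52 when scaled by library totals alone).

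The myomesins of the M-band, where the muscle creatine kinase is anchored, gave 2 rises and 0 falls of 3 genes. Of all genes tested 26.1% rose and 23.9% fell. Ckm fell with TMM scaling and rose when scaled by library totals alone. With library totals alone all 3 myomesin genes rose too, where 78.6% of all genes rose and 2.68% fell. Myom2 had 967, 427, 531 and 415 CPM in knockout libraries, against 342, 309, 276 and 246 CPM in controls (log2 fold change 0.996, SE 0.22, adjusted p = 0.0019). Knockout library 1 stood far above the other knockout libraries, which also lay above all controls. Myom3 rose (1.09, SE 0.18), and Myom1 did not pass (0.12, adjusted p = 0.435).

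Genes whose pattern over the 8 libraries was most like that of a creatine kinase were found by the root mean square difference of centred log2 CPM, among 12556 protein-coding genes and as a description. Nearest to Ckm were the cardiac myosin light chain gene Myl3 (0.0596), Rundc3b (0.0752) and Ak1 (0.0807), where the median gene differed by 0.448. Ak3 stood at place 135 and Ckmt2 at place 582 in that order. Nearest to Ckmt2 were Map1lc3a (0.056), the muscle phosphoglycerate mutase gene Pgam2 (0.0603) and Plin3 (0.0604), against a median of 0.331. Nearest to Ckb were Armc8 (0.0607), Cd9 (0.065) and Bach1 (0.0712), against a median of 0.304.

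Against the mean log2 count of the 8 cardiomyocyte markers within each library, a scaling added after the data were seen and given with no test, the falls of the muscle members were not seen. Ckm then stood at 0.18, Ckmt2 at 0.53, Ak1 at 0.05 and Ak3 at 0.21 log2 units, knockout over control. Ckmt2 was higher in all 4 knockout libraries than in any control on this scale, and the libraries of Ckm, Ak1 and Ak3 overlapped. Ckb (0.69) and Gatm (0.28) also stood above 0, with overlap. Slc6a8 (1.81) and Ckmt1 (4.45) stood higher without overlap, and Gamt stood at -0.37 with overlap. Single markers changed unequally, from Ryr2, the sarcoplasmic calcium release channel (-1.76), and Pln, a regulator of the calcium pump (-1.58), to Actn2, which anchors thin filaments (0.26). Within a library this scale moves every member by the same amount, and Ryr2 and Pln lower the marker mean of the knockout libraries most. The signs given here therefore depend on the markers chosen, and a set without Ryr2 and Pln was not tried. The part of the markers and of the share of mitochondrial counts in the members' changes was not tested.

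Markers of other cells, given here with TMM scaling, had smaller sums. With this scaling 26.1% of all genes tested rose and 23.9% fell. Of 5 fibroblast markers 2 rose (194 to 304 CPM in knockout libraries, 182 to 200 CPM in controls), and of 5 endothelial markers 2 fell (282 to 313 CPM in knockout libraries, 327 to 347 CPM in controls). Of 5 macrophage markers 1 fell (39 to 55.2 CPM in knockout libraries, 47.3 to 68.5 CPM in controls), and of 4 red blood cell markers none passed (168 to 885 CPM in knockout libraries, 172 to 444 CPM in controls). None of 6 skeletal muscle markers had enough counts to test, with sums of 0.0945 to 0.382 CPM in knockout libraries and 0.79 to 1.05 CPM in controls and Myh4 at 0 in every library. Atrial markers summed to 0.41 to 0.721 CPM in knockout libraries and 0.262 to 0.498 CPM in controls. Of 5 adipocyte markers Cidea, the 1 with enough counts, rose (9.14 to 12.5 CPM in knockout libraries and 4.06 to 4.61 CPM in controls over the list), and Ucp1 was at 0 in every library.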

How the data were processed

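Raw counts per gene of 8 libraries, deposited as whole numbers, were joined by gene identifier. Per the labels' protocols, RNA had been extracted from crude heart mitochondria with a miRNeasy kit, and TruSeq libraries were sequenced as paired ends on a MiSeq. Per the submitters' processing notes, which give no role or order, the tools were DESeq2 1.14.1, R 3.3.2, featureCounts, SAMtools 1.3.1, bedtools and Bowtie2, on build mm10. Normalized signal values, also deposited, are the counts times 1 constant per library and were not used further. The authors' deposited table of results held log2 fold changes and their SE, a test score, p-values and a mean signal. Gene names and gene types were taken from it. Of its values, the adjusted p of Ckmt2 and the log2 fold change of Ckmt1 alone were used.

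Counts were tested with edgeR 4.0.16 in R 4.3.3 (quasi-likelihood test on genotype, with TMM factors and filterByExpr at a minimum count of 10). The test was two-sided. Its p-values were adjusted by the Benjamini-Hochberg method over all 17891 genes kept, with a threshold of 0.05, and the members were read from that fit. Animals are separate per the series text. The biological coefficient of variation was 11.3%, a single value over all genes and both groups. The spread was unequal: chi-square per degree of freedom between pairs of libraries was 2.42 to 3.70 in controls and 7.82 to 125 in knockout libraries. Counting intervals (95%, exact) cover counting error only. Gene positions are from GENCODE M21 (GRCm38) and figures from matplotlib 3.10.9. The test was tested on simulated data in which few genes changed and all genes had the same dispersion. In these data 50.0% of genes passed, so the simulation does not check the calls given here. Alternatives were DESeq2 1.42.0, RLE factors, library totals, no filter, nuclear genes alone, a replicate block, leaving out each library, 5 in place of 0.5 added to counts in ratios, and another denominator of levels. Genes named are all members, at most 3 called genes by smallest p from each other list plus those against their list's majority, and the 3 nearest in pattern to Ckm, Ckmt2 and Ckb; Mat2a, Mat2b, Slc25a4, Myom1 and single markers were named after their values were seen. The members and lists were chosen with earlier results of these data known. 1 gene of the adenylate kinase list and 1 of the neuron and glia markers are not reported here.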

Additional observations from a re-analysis of the deposited data

Results flagged for a closer look

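In 3 of 28 groups of 4 libraries, 1 library stood apart from the other 3, by a gap that took up most of the group's range; chance gives this for about 1 in 20 groups. Ckmt1 was high in knockout library 1, at 2.26 CPM, against 0.347 to 0.635 CPM in the other knockout libraries (gap over range 0.849). Gamt was high in knockout library 2, at 1.33 CPM against 0.765 to 0.851 CPM in the others (0.848). The log2 ratio of Ckmt2 to Ckm was low in knockout library 1, at -0.69 against -0.37 to -0.33 in the others (0.875). Knockout library 1 also had the largest share of mitochondrial counts among the knockout libraries, 59.3%.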

How the results depend on the processing

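Scaled by library totals alone, 6 members rose and 0 fell, and the sign turned for Ckm (0.36), Ckmt2 (0.72), Ckb (0.90), Gatm (0.46), Ak1 (0.23), Ak3 (0.39), Ampd3 (0.48), Prkab1 (0.56), Prkag1 (0.75) and Slc25a23 (0.52). Relative to the 8 cardiomyocyte markers it turned for Ckm (0.18), Ckmt2 (0.53), Ckb (0.69), Gatm (0.28), Ak1 (0.046) and Ak3 (0.21). With nuclear genes alone 1 member rose, since Ckmt1 dropped below the filter. Leaving out each library gave 2 rises throughout and 4 to 5 falls, and DESeq2 2 and 4. Without 1 library, the ratio of Ckb to Ckm ran from 0.43 to 0.67, that of Ckmt1 to Ckmt2 from 3.42 to 4.35 and that of Ckmt2 to Ckm from 0.31 to 0.43. They passed without knockout library 1, each at the smallest p of the exact permutation test with 3 against 4 libraries (0.0286). With 5 in place of 0.5 added to counts, the ratio of Ckmt1 to Ckmt2 was 1.81, and no ratio crossed the threshold. The summed creatine kinase level was 363 in knockout libraries and 245 in controls with all counts as the denominator, and 1064 in knockout libraries and 1499 in controls with the shortest coding transcript as length.

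The replicate numbers did not pair the libraries: deviations of same-numbered libraries correlated at -0.0136 to 0.0497, and for 1 of 4 numbers the best partner was the same-numbered library. With the number as a block 2 members again rose and 5 fell, and no call of a member changed. Permuted within pairs, the smallest p that 4 pairs allow is 0.125, so the exact permutation test had no means to pass 0.05 (adjusted p = 0.312 to 0.5). Depth limits Ckmt1, Gamt and Gatm, with at most 59 counts per library.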
